A study of Mus musculus with 4 samples.

Results

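The 33 genes described here encode the enzymes of glycolysis, carriers that bring glucose into the cell and take lactate out, the hypoxia-inducible factor HIF-1α, and a set of its targets. They were picked by name as members of these pathways and matched by symbol, and all 33 were found among the 27998 genes of the count tables of the 4 libraries. By role, 1 gene is the regulator (*Hif1a*) and 4 act in glucose uptake and phosphorylation (*Slc2a1*, *Hk1*, *Hk2* and *Hk3*). Upper glycolysis holds 7 genes (*Gpi1*, *Pfkl*, *Pfkp*, *Pfkfb3*, *Pfkfb4*, *Aldoa* and *Tpi1*) and lower glycolysis 5 (*Gapdh*, *Pgk1*, *Pgam1*, *Eno1* and *Pkm*). A further 4 genes handle lactate and pyruvate (*Ldha*, *Slc16a1*, *Slc16a3* and *Pdk1*), and 12 are other HIF targets (*Bnip3*, *Hilpda*, *Vegfa*, *Adm*, *Egln3*, *P4ha1*, *Ero1l*, *Ndrg1*, *Mxi1*, *Ankrd37*, *Ddit4* and *Higd1a*).

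The libraries held cells bearing CD45, a surface protein of white blood cells, which had been pulled out on magnetic beads from a tibialis anterior muscle damaged by cardiotoxin. This toxin kills muscle fibres, and neutrophils and monocytes then enter the leg muscle from the blood. The male mice were 8 to 12 weeks old, and cells were taken at 2 or 4 days post injury (dpi2 and dpi4). Each day is covered by 1 control and 1 KO-labelled library. Mice of both groups were on a C57BL/6 background and had loxP sites around exon 4 of *Bach1* (*Bach1* fl/fl). Control littermates carried no Cre, while KO mice carried Lyz2-Cre, a Cre recombinase placed in the *Lyz2* locus, which is active in monocytes, macrophages and neutrophils. No group carried Cre without the floxed gene. Loss of *Bach1*, presence of Cre and the near absence of *Lyz2* RNA given below therefore cannot be told apart. The series describes each library as an individual mouse, so the spread between mice was not measured, no p-value can be given, and each interval below covers counting error only.

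Glycolysis splits glucose into pyruvate and yields ATP without oxygen, and cells that rely on it reduce the pyruvate to lactate and export it. HIF-1α is broken down while oxygen is plentiful, after prolyl hydroxylases such as the product of *Egln3* have marked it. When oxygen falls, or when inflammatory signals stabilise it, HIF-1α binds short hypoxia response elements near its targets, which include most glycolytic enzymes. Neutrophils have few mitochondria and depend on glycolysis, and inflammatory macrophages shift towards it. BACH1 is a repressor of transcription that heme inactivates, and *Hmox1*, which encodes heme oxygenase, is its classic target.

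The promoters of 3 members that were higher in the KO-labelled libraries in several cell types are printed to show what the regulatory sequence of such genes looks like. Each runs from 250 bases before to 50 after a transcription start, 5′ to 3′ on the strand of the gene, from RefSeq on GRCm38.p6, the assembly behind mm10. For genes with several starts, the window with the most motif matches is shown. Capitals mark the core of the hypoxia response element (ACGTG or GCGTG, on either strand). In *Aldoa* they also mark an overlapping match to TGACNNNGC, a core bound by BACH1 and its competitor NRF2 with small MAF proteins, and to TGAGTCA, the AP-1 site.
*Hilpda*, chr6:29272376-29272675, plus strand: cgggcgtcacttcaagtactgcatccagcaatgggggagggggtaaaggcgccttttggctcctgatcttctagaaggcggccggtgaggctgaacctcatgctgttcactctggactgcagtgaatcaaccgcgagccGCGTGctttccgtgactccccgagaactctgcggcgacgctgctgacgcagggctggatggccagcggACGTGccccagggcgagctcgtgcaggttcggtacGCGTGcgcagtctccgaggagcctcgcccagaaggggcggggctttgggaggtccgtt
*Slc16a3*, chr11:120948817-120949116, plus strand: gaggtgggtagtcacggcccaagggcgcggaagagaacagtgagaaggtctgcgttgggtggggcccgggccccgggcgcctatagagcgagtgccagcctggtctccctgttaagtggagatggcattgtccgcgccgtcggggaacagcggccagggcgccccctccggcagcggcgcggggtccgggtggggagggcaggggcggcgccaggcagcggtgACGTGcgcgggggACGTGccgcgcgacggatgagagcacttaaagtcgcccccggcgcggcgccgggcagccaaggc
*Aldoa*, chr7:126799205-126799504, minus strand: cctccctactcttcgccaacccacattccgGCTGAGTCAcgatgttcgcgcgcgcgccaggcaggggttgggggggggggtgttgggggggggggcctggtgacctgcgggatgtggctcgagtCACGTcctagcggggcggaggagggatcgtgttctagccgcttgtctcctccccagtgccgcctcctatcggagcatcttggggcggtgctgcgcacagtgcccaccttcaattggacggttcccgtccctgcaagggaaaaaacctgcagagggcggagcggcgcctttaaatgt
The *Hilpda* window held 3 hypoxia cores, at 111, 43 and 8 bases before the start. In *Slc16a3* there were 2, at 27 and 14 bases before the start. The *Aldoa* window held 1, read as CACGT 126 bases before the start, and the overlapping match lay 220 bases before it. RefSeq windows were matched for 31 of the 33 members (44 windows); *Ero1l* and *Ndrg1* had none. A hypoxia core was present in 36 of the 44 windows (81.8%), against 43.8% of the 32851 windows of all genes. The members were picked as HIF targets and glycolysis genes, so this difference cannot be told apart from the choice of the list. The member windows were also richer in G and C, with a median of 64.5% against 52.7%. TGACNNNGC was found in 6 of 44 windows (13.6%), against 12.4% of all, and TGAGTCA in 1 (2.27%), against 5.2%. A match is a description of the letters and not a bound site.

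In the checks of the labels, *Lyz2* was at 9388 CPM (counts of RNA molecules scaled to the total of the library or class) in the control and at 17.49 in the KO-labelled library at dpi2, and at 15845 and 21.61 at dpi4. *Hmox1* was at 501.6 and 8190 CPM at dpi2 and at 416.6 and 6326 at dpi4. *Bach1* itself was at 188.6 and 187.2 CPM at dpi2 and at 206.8 and 217.4 at dpi4, so it was no lower, but reads from its 3′ end do not report on exon 4. The libraries are therefore called by their labels. They held 4177 to 6602 barcodes and 57010520 to 80228489 UMIs (unique molecular identifiers, which count RNA molecules), of which 3433 to 5721 cells were kept at a median of 10716 to 15146 UMIs. Between 2 and 14 barcodes were shared by any pair of libraries. At dpi4, barcodes with at least 10% mitochondrial UMIs made up 15.36% of the control library and 19.92% of the KO-labelled library, against 8.104% and 6.608% at dpi2. Muscle-fibre cells, which a CD45 enrichment should remove, numbered 327 and 56 at dpi4 and 0 at dpi2, and were left out.

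Cells were classed from marker genes, and clusters were formed without the 33 genes. At dpi2, 1837 macrophages, 2631 monocytes, 632 neutrophils, 315 dendritic cells and 103 T or NK cells came from the control and 1048, 985, 815, 238 and 36 from the KO-labelled library. At dpi4, macrophages dominated (2952 and 2566), and only 53 and 69 monocytes and 129 and 36 neutrophils remained. The UMIs of all cells of a class were summed within a library and scaled to CPM. A gene was scored where both libraries together held at least 50 UMIs, and called higher or lower where the ratio was at least 2-fold and its 95% interval left out 1. Ratios are given on the log2 scale, where 1 is 2-fold, as the KO-labelled library over the control unless the days are compared.

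The summed level of the 33 glycolysis and hypoxia genes was higher in the KO-labelled library at dpi2 in all 5 classes, T or NK cells included, and no member was called lower in any of them on either day. In neutrophils 15 of the 30 scored members were called higher and 0 lower, where 2.41% of 5798 scored genes were called higher and 6.81% lower. In monocytes 6 of 32 were called higher, against 1.85% higher and 2.79% lower of 10057 genes. In macrophages 3 of 31 were called higher, against 2.29% higher and 2.15% lower of 11098 genes, and in dendritic cells 3 of 29, against 1.47% and 1.36% of 8025. In T or NK cells 0 of 11 were called, against 1.44% higher and 3.74% lower of 2085. *Slc16a3* and *Hilpda* were the members called higher in all of neutrophils, monocytes, macrophages and dendritic cells.

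**Figure D1:**
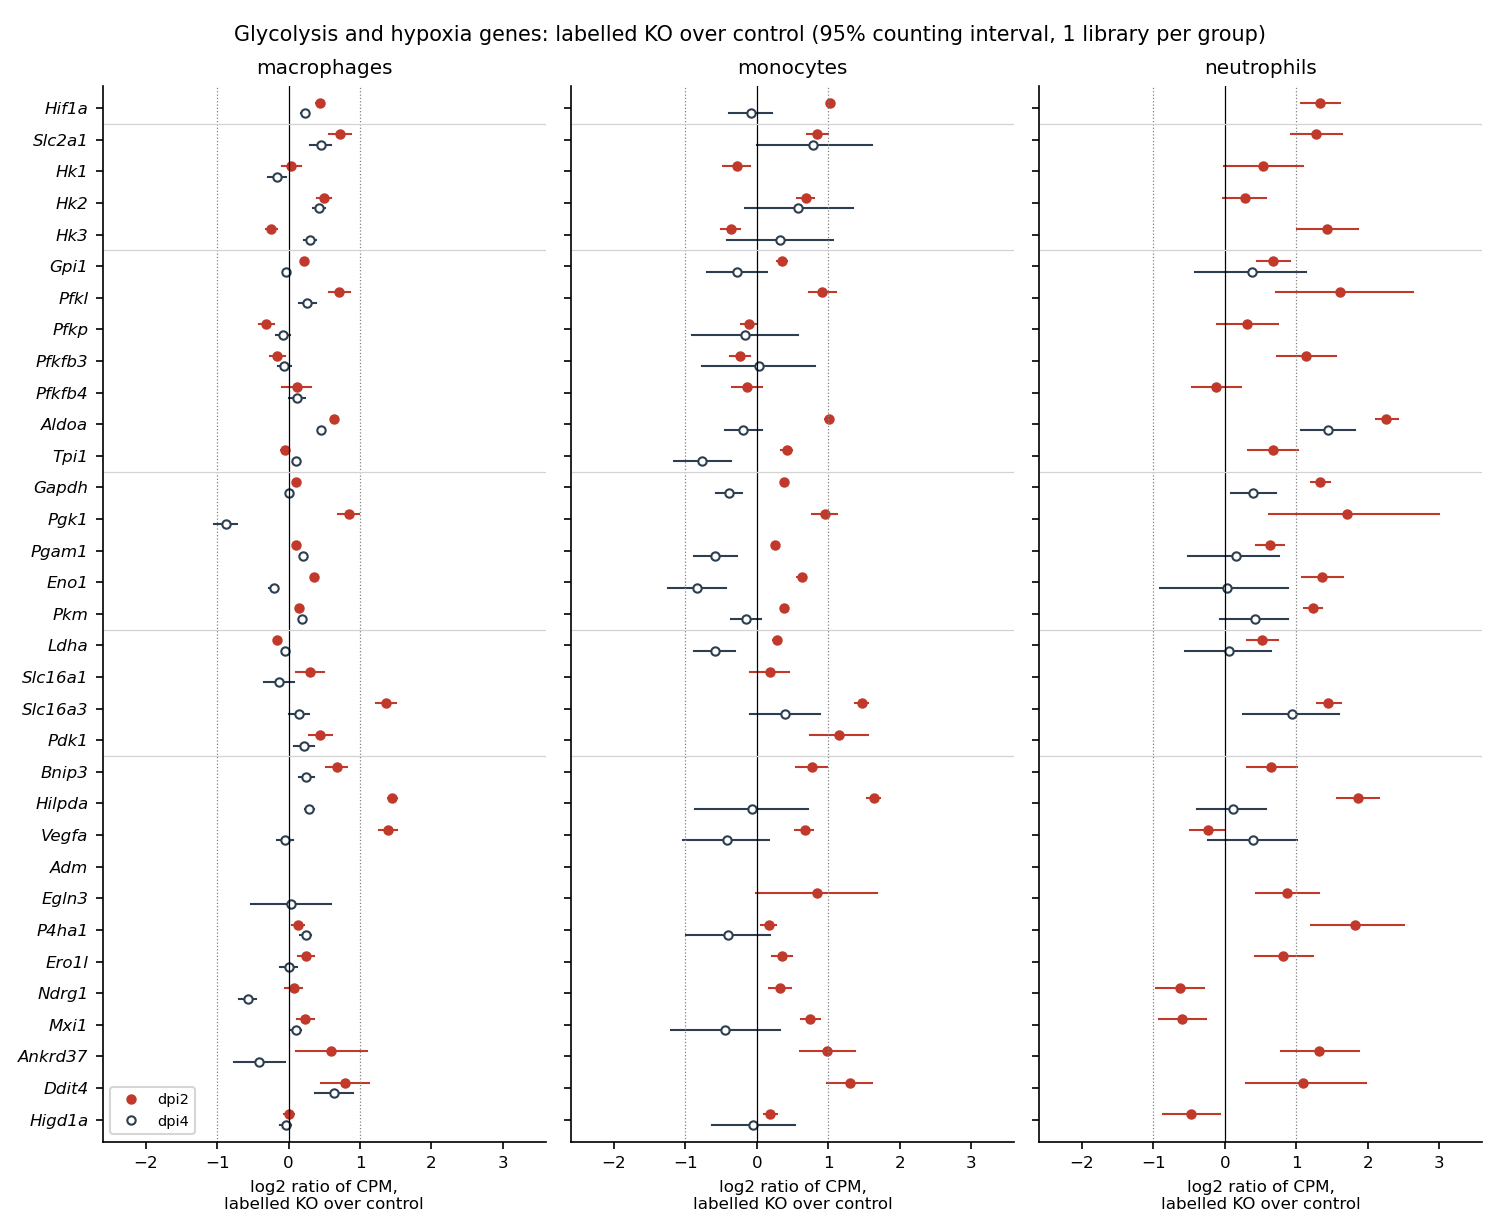
Log2 ratio of the level in the KO-labelled library over the control (x axis) for the 33 members (y axis, by role) in macrophages, monocytes and neutrophils, filled at dpi2 and open at dpi4, with 95% counting intervals as bars. Most filled points of neutrophils lie right of 0, with *Aldoa* at 2.26, and the open points of macrophages lie between -0.88 and 0.63.

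The neutrophils gave the most calls. Summed over the 20 glycolysis members, their level was 2255 CPM in the control and 5342 CPM in the KO-labelled library at dpi2, a ratio of 2.368 (2.283 to 2.458). The median log2 ratio of the scored members was 0.98, while the median of all scored genes was -0.31. Ratios were above 1 for 17 of the 18 scored glycolysis members and below 1 for *Pfkfb4* alone (-0.12, interval -0.46 to 0.22).

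*Hif1a*, the gene of the regulator (chr12:73901375-73947530, plus strand), was at 88.74 CPM in control neutrophils and at 223.5 in those labelled KO at dpi2, and at 105.6 and 84.64 at dpi4. Its log2 ratio was 1.33 (1.07 to 1.61) at dpi2, and at dpi4 only 39 and 9 UMIs were counted. Of the genes of glucose uptake, *Slc2a1*, which encodes the glucose carrier GLUT1, was at 53.11, 128.4, 81.21 and 112.8 CPM in the order kept below, which is the control and then the KO-labelled library of dpi2 followed by those of dpi4. *Hk3*, a hexokinase of myeloid cells, was at 35.62, 95.79, 21.66 and 47.02 CPM. The dpi2 ratios of these were 1.27 (0.93 to 1.64) and 1.43 (1.01 to 1.87), while *Hk1* (0.53) and *Hk2* (0.28) had intervals that reached 0.

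In upper glycolysis, *Aldoa* encodes aldolase A, which splits fructose bisphosphate, and lies at chr7:126795234-126800751 on the minus strand. Its level in neutrophils was 236.4, 1136, 360 and 978 CPM. The log2 ratio was 2.26 (2.11 to 2.42) at dpi2, against 1.44 (1.06 to 1.82) at dpi4, so both KO-labelled libraries stood above both controls. At dpi4, where 10 members were scored, *Aldoa* was the 1 called, against 2.03% higher and 4.07% lower of 1623 genes. *Pfkl*, a subunit of phosphofructokinase, rests on 12 UMIs in the control and 70 in the KO-labelled library at dpi2, with levels of 7.773, 23.78, 18.95 and 9.404 CPM. *Pfkfb3*, whose product makes the activator of phosphofructokinase, was at 40.81, 89.68, 13.53 and 18.81 CPM. Their dpi2 ratios were 1.61 (0.72 to 2.63) and 1.14 (0.73 to 1.56), and those of *Gpi1* and *Tpi1* were 0.68 and 0.67.

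In lower glycolysis 4 of the 5 genes were called higher at dpi2. *Gapdh*, which takes the first oxidation step, was at 360.1, 907.7, 825.6 and 1091 CPM, with a ratio of 1.33 (1.2 to 1.47). *Eno1*, the enolase, was at 79.02, 203.5, 138.1 and 141.1 CPM, and *Pkm*, the pyruvate kinase that ends the pathway, at 423.6, 995, 373.6 and 498.4. Their ratios were 1.36 (1.08 to 1.66) and 1.23 (1.11 to 1.36), while *Pgam1*, the mutase that acts before enolase, had 0.63 (0.44 to 0.83). *Pgk1*, a kinase that makes ATP, was called on 8 and 50 UMIs (5.182 and 16.98 CPM, ratio 1.71, 0.62 to 3.0). At dpi4 it had 1 UMI in control neutrophils and 0 in those labelled KO, and no ratio is given.

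*Slc16a3* encodes MCT4, which exports lactate, and lies at chr11:120948480-120960868 on the plus strand. Neutrophils carried it at 231.9, 634.9, 151.6 and 291.5 CPM, with ratios of 1.45 (1.29 to 1.62) at dpi2, against 0.94 (0.26 to 1.60) at dpi4. The ratio of *Ldha*, the dehydrogenase that makes lactate, was smaller at dpi2, with levels of 158 and 226.9 CPM (0.52, 0.31 to 0.74). The other lactate carrier, *Slc16a1*, had 9 UMIs at dpi2 and was not scored.

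Among the HIF targets, *Hilpda*, whose product coats lipid droplets and restrains lipolysis, lies at chr6:29272488-29275446 on the plus strand. It was at 70.6, 256.5, 419.6 and 451.4 CPM in neutrophils, with ratios of 1.86 (1.57 to 2.16) at dpi2, against 0.11 (-0.39 to 0.58) at dpi4. *P4ha1*, a subunit of collagen prolyl hydroxylase, was at 15.55, 55.03, 35.19 and 37.62 CPM, *Ankrd37*, an ankyrin repeat protein, at 23.32, 58.09, 37.9 and 112.8, and *Ddit4*, an inhibitor of mTORC1, at 10.36, 22.08, 8.121 and 9.404. Their dpi2 ratios were 1.82 (1.2 to 2.51), 1.32 (0.79 to 1.88) and 1.09 (0.29 to 1.98). Not all targets went the same way. *Vegfa*, the vascular growth factor, was at 147.7 and 124.7 CPM at dpi2 (-0.24, -0.49 to 0.00), and *Ndrg1* (-0.63), *Mxi1* (-0.60) and *Higd1a* (-0.47) were below 0 with intervals that left out 0. *Adm*, the adrenomedullin gene, had 0 UMIs in neutrophils of all 4 libraries.

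Several measures moved with the neutrophil comparison. The neutrophils labelled KO were deeper, at a median of 3428 UMIs against 2308, and the summed level of the 8 neutrophil markers was 74006 against 52444 CPM, while that of the 6 monocyte markers was 484.7 against 1542 and that of the 10 macrophage markers 509.5 against 610.8, all of these genes being detected. The 10 muscle-fibre markers were all detected too and summed to 62.16 CPM against 94.57 in the control. With median-of-ratios size factors in place of CPM, every neutrophil log2 ratio at dpi2 was 0.35 higher, 19 members were called, and the share of all genes turned from 2.41% higher and 6.81% lower to 4.73% and 3.02%. With predicted doublets kept, 89 barcodes joined the control neutrophils and 59 those labelled KO, and 9 of 31 scored members were called higher and 0 lower, against 2.14% higher and 4.65% lower of 7375 genes. *Hif1a* (0.87), *Hk3* (0.95), *Pfkfb3* (0.89), *Gapdh* (0.78), *Pgk1* (0.52), *Eno1* (0.97), *Pkm* (0.82) and *P4ha1* (0.55) then stayed under 2-fold, while *Aldoa* (2.02), *Slc16a3* (1.47) and *Hilpda* (1.98) did not. *Pdk1* and *Egln3*, not among the 15, were then called higher. The part of depth, of monocyte RNA and of doublets in the result was not tested. Without 10 control barcodes and 2 labelled KO in which muscle markers took at least 0.1% of UMIs, 15 members were called.

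**Figure D2:**
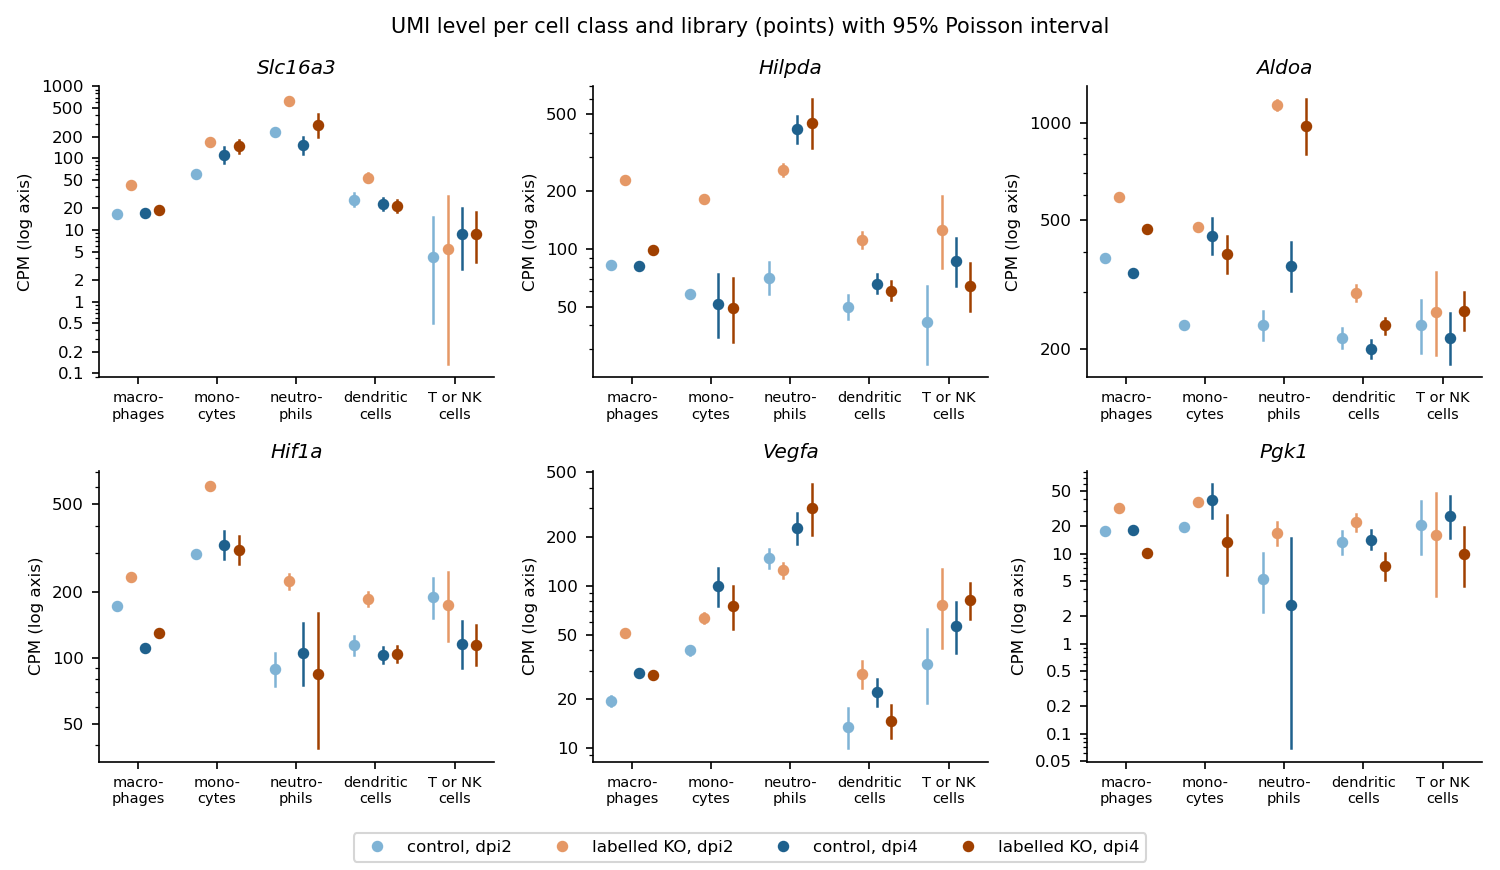
Level of 6 members in CPM (log y axis) in each cell class (x axis) and library, with 95% counting intervals as bars. *Slc16a3*, *Hilpda* and *Aldoa* are higher in the KO-labelled library than in the control at dpi2 in each myeloid class; *Pgk1* of neutrophils labelled KO at dpi4 had 0 UMIs and is not drawn.

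A second group of 89 and 496 cells at dpi2, led by *Prok2*, *Rab15* and *Cxcr1*, lay near the neutrophils. It carried the 8 neutrophil markers at 8095 CPM in the control and 14918 CPM in the KO-labelled library, but none of them led it, and it was left unnamed. Its control cells had *Ly6g*, a defining neutrophil marker, at 0 UMIs. In it 14 of 27 scored members were called higher and 0 lower, where 4.96% of 4012 genes were called higher and 8.33% lower. *Aldoa* was at 374.6 and 1312 CPM (1.81, 1.51 to 2.12), and *Slc16a3* at 19.31 and 132 (2.77, 1.53 to 4.41) on 5 control UMIs. *Hilpda* and *Vegfa* had their highest levels of all 22 leukocyte clusters here (619.6 and 511.9 CPM over the 4 libraries), yet neither was called, at 0.78 (0.48 to 1.09) and -0.22 (-0.47 to 0.04). Only 89 control cells stand behind these ratios, and muscle-fibre markers summed to 305.1 CPM in them (3 of 10 detected) and to 93.27 in those labelled KO (9 of 10), whose part in the result was not tested.

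Monocytes leave the blood and turn into macrophages in the tissue. Their summed glycolysis level was 3334 CPM in the control and 4527 CPM in the KO-labelled library at dpi2 (ratio 1.358, 1.344 to 1.372). The median log2 ratio of the 32 scored members was 0.52, against -0.01 over all genes. *Hif1a* was at 296.4, 606.7, 328 and 309.9 CPM, so the dpi2 KO-labelled library stood apart from the other 3, and the ratio was 1.03 (0.99 to 1.08). All 5 genes of lower glycolysis (0.26 to 0.95) and all 11 scored HIF targets (0.17 to 1.64) were above 0.

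*Aldoa* in monocytes was at 236.9, 477.6, 447.5 and 392.9 CPM, with a ratio of 1.01 (0.96 to 1.06) at dpi2, against -0.19 (-0.45 to 0.08) at dpi4. *Slc16a3* was at 60.99, 168.8, 112.3 and 147.3 CPM and had the ratio 1.47 (1.38 to 1.56) at dpi2. *Pdk1*, a kinase that inhibits pyruvate dehydrogenase, was at 3.575, 7.943, 24.96 and 5.08 CPM (1.15, 0.75 to 1.56, at dpi2). Its dpi4 levels rest on 14 and 3 UMIs. *Hilpda* was at 58.27, 182.1, 51.7 and 49.11 CPM (1.64, 1.55 to 1.73), and *Ddit4* at 5.452, 13.45, 8.914 and 5.08 (1.30, 0.99 to 1.62). Just under 2-fold were *Ankrd37* (0.99), *Pgk1* (0.95) and *Pfkl* (0.92), while *Hk3* (-0.36), *Hk1* (-0.28) and *Pfkfb3* (-0.24) were below 0 with intervals that left out 0. The monocytes labelled KO were deeper at dpi2, at a median of 13402 UMIs against 10068. Their own 6 markers summed to 7785 CPM against 10603 in the control, and the 10 macrophage markers to 4024 against 3664. The 8 neutrophil markers summed to 200 CPM in control monocytes and to 411.9 in those labelled KO. The part of depth and of these markers in the result was not tested.

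At dpi4, 20 members were scored in monocytes and 0 were called, where 1.47% of 3403 genes were called higher and 1.76% lower. The ratios of 15 of the 20 were below 1, with *Eno1* at -0.83 (-1.24 to -0.43) and *Tpi1* at -0.76 (-1.16 to -0.36). *Pgk1* was at 39.22 and 13.55 CPM on 22 and 8 UMIs and was not scored. The 10 macrophage markers, all detected, summed to 13672 CPM in control monocytes and 8239 in those labelled KO at dpi4. The 6 monocyte markers, all detected, summed to 5794 and 8122 CPM. The part of these markers in the lower ratios was not tested. The 53 and 69 monocytes of dpi4 changed with the clustering, and with each library clustered by itself they became 273 and 123. Then 2 of 28 scored members were called higher and 5 lower, against 6.09% higher and 6.97% lower of 7472 genes.

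In macrophages, which engulf the debris and later aid the repair, 3 members were called higher at dpi2. *Hilpda* was at 82.77, 226.7, 81.03 and 98.97 CPM, with a ratio of 1.45 (1.39 to 1.52) at dpi2, against 0.29 (0.23 to 0.35) at dpi4. *Slc16a3* was at 16.45, 42.25, 17.08 and 18.89 CPM, with ratios of 1.36 (1.22 to 1.5) and 0.15 (0.01 to 0.28). *Vegfa* (chr17:46016993-46032369, minus strand) was at 19.42, 50.81, 29.13 and 28.15 CPM, with ratios of 1.39 (1.26 to 1.52) and -0.05 (-0.16 to 0.06). For each of the 3 genes the KO-labelled library at dpi2 stood above the other 3. At dpi2, the 8 neutrophil markers summed to 102.8 CPM in control macrophages (8 detected). In those labelled KO they summed to 256.4 (7 detected, *Ly6g* at 0). The 6 monocyte markers summed to 1218 and 926.4 CPM and the 10 macrophage markers to 11420 and 12736. The macrophages labelled KO were deeper, at a median of 26841.5 UMIs against 18709. The part of these measures in the result was not tested.

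The enzymes of glycolysis differed less in macrophages. Their summed level was 4250, 4748, 2881 and 3122 CPM, a ratio of 1.117 (1.109 to 1.125) at dpi2, against 1.084 (1.076 to 1.092) at dpi4. *Aldoa* was at 380.7, 589.3, 342.4 and 470.2 CPM, and its ratios of 0.63 (0.60 to 0.66) and 0.46 (0.43 to 0.49) were under 2-fold on both days. *Slc2a1* was at 16.31, 26.91, 13.16 and 17.95 CPM (0.72 at dpi2, 0.45 at dpi4), and *Hk2* at 45.89, 64.7, 40.92 and 54.89 (0.50 and 0.42). *Gapdh* (0.11), *Pgam1* (0.10), *Pkm* (0.15) and *Tpi1* (-0.05) lay near 0 at dpi2, and *Ldha* was at 453.4 and 405.4 CPM (-0.16, -0.20 to -0.13). Also lower in the KO-labelled library at dpi2 were *Pfkp*, at 49.33 and 39.63 CPM, and *Pfkfb3*, at 46.74 and 41.95. *Hk3* was lower too, at 91.19 and 77.29 CPM (-0.24, -0.32 to -0.16). *Hif1a* was at 172.9, 234.4, 111.2 and 130.2 CPM (0.44 and 0.23). Among the members with moderate ratios above 0 at dpi2 were *Bnip3* (0.68), *Ddit4* (0.79) and *Pfkl* (0.71).

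*Pgk1* (chrX:106187100-106203699, plus strand) was at 17.81, 31.81, 18.42 and 10.03 CPM in macrophages. It was thus higher in the KO-labelled library at dpi2 (0.84, 0.69 to 0.98) and lower at dpi4 (-0.88, -1.04 to -0.72). Dendritic cells gave 13.38, 22.22, 14.32 and 7.31 CPM, with 0.73 (0.21 to 1.26) and -0.97 (-1.59 to -0.38). In T or NK cells at dpi4 it had 15 and 8 UMIs and was not scored. Of the 32 members scored in macrophages at dpi4, 0 were called, where 0.979% of 11948 genes were called higher and 1.34% lower, and the median log2 ratio was 0.11 against 0.02 over all genes.

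Dendritic cells, which present antigen, had *Slc16a3* at 26.5, 53.53, 22.91 and 21.54 CPM (1.01, 0.66 to 1.37, at dpi2) and *Hilpda* at 50.05, 111.1, 65.86 and 60.46 (1.15, 0.90 to 1.40). *Vegfa* was at 13.38, 28.53, 22.09 and 14.62 CPM, with 1.09 (0.60 to 1.60) at dpi2 and -0.60 (-1.04 to -0.16) at dpi4. Only *Hilpda* was called at a mitochondrial limit of 20%, with doublets kept or after thinning. The *Cd209a* cluster, the 1 dendritic cluster with at least 30 cells of each library at dpi2, gave 1.05 (0.68 to 1.43) for *Slc16a3* and 1.17 (0.91 to 1.44) for *Hilpda*. Markers of other cells moved with this comparison at dpi2. The 8 neutrophil markers summed to 126.1 CPM in control dendritic cells, with *Ly6g* at 0, and to 331.5 in those labelled KO, where all were detected. The 6 monocyte markers summed to 4029 and 2547 CPM and the 10 macrophage markers to 549.8 and 933.8, all detected. Their part in the result was not tested. At dpi4, 0 of 30 members were called, against 0.612% higher and 0.76% lower of 8818 genes. The macrophage markers then summed to 5213 CPM in the control and 3156 in the KO-labelled library, and the monocyte markers to 1835 and 2028. The neutrophil markers summed to 110.3 CPM (7 detected) and 17.19 (6 detected). The part of these markers in the dpi4 ratios was not tested.

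T or NK cells serve as lymphocytes in which *Lyz2* is not normally active. Their 33 members summed to 2773 CPM in the control and 3096 in the KO-labelled library at dpi2 (ratio 1.117, 1.011 to 1.232), against ratios of 1.16 in macrophages and 1.172 in dendritic cells. The 12 HIF targets summed to 383.1 and 645.2 CPM (1.684, 1.326 to 2.132), and this interval holds the ratios of monocytes (1.589), macrophages (1.527) and neutrophils (1.412), while dendritic cells had 1.253. The 20 glycolysis members summed to 2201 and 2277 CPM in T or NK cells (1.035, 0.9218 to 1.159). *Slc16a3* had 2, 1, 5 and 7 UMIs in them and *Aldoa* 236.1, 260.3, 216.6 and 262.5 CPM (0.14, -0.38 to 0.64, at dpi2). *Hilpda* was at 41.42, 124.7, 86.28 and 63.76 CPM on 20, 23, 49 and 51 UMIs, and its dpi2 interval of 0.66 to 2.53 left out 0, but with 43 UMIs it was not scored. *Ero1l*, an oxidase of the endoplasmic reticulum, was at 41.42 and 135.6 CPM at dpi2 on 20 and 25 UMIs (1.71, 0.80 to 2.64) and was not scored either. The 8 neutrophil markers summed in T or NK cells to 39.35 CPM in the control (5 detected) and 222.3 in the KO-labelled library (4 detected), on 19 and 41 UMIs, with *Ly6g* and *Cxcr2* at 0 in both. The 6 monocyte markers were lower, at 1559 CPM (753 UMIs, 6 detected) and 699.5 (129 UMIs, 5 detected), as were the 10 macrophage markers, at 337.5 and 206 (163 and 38 UMIs, 8 detected in each). The part of these markers in the differences was not tested. At dpi4, 0 of 14 members were called, against 0.857% higher and 2.05% lower of 3851 genes.

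The share of cells with at least 1 UMI was compared after thinning every cell to 2000 UMIs, which left out 167 control and 54 labelled KO neutrophils and at most 33 cells of another class at dpi2. *Aldoa* was then seen in 35.1% (30.7 to 39.6, exact binomial) of control neutrophils and 84.1% (81.3 to 86.6) of those labelled KO, and in 37.3% and 93% before thinning. In T or NK cells it was seen in 32.7% and 33.3%, and how much of this was free RNA or expression was not tested. For *Slc16a3* the shares were 25.8% and 58.2% (32.9% and 70.9% unthinned), against 0 of 101 and 0 of 36 T or NK cells, which allows up to 3.59% and 9.74%. *Hilpda* was seen in 7.31% and 19.7% of neutrophils, 7.93% and 21.2% of monocytes and 12.4% and 26.2% of macrophages (7.12% and 23.8%, 24.3% and 54%, and 43.5% and 73.5% unthinned). Its shares in T or NK cells, 6.93% (2.83 to 13.8) and 22.2% (10.1 to 39.2), overlapped those of the neutrophils. These shares cannot tell free RNA apart from expression, for *Hilpda* or for the other members. *Hif1a* was seen in 39.8% and 63.2% of monocytes (83.6% and 95.9% unthinned), and in 30.7% and 27.8% of T or NK cells.

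The macrophages and monocytes of the libraries did not come from the same clusters. At dpi2, control macrophages came mostly from a cluster led by *Hmga2* and *Htr2b* (1118 cells, against 184 of the 1048 labelled KO). A cluster led by *Lyve1* and *Cd163* held 459 and 326, and a cycling one led by *Plk1* 122 and 34. Control monocytes were spread over clusters led by *F10* (884), *Vcan* (736), *Serpinb10* (652) and *Lipg* (359), and those labelled KO lay mostly in the *Vcan* cluster (698, against 152, 101 and 34). The genes were therefore compared within each of these 7 clusters.

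*Aldoa* was above 0 with an interval that left out 0 in all 7, from 0.55 in the *Hmga2* and *Plk1* clusters to 1.26 in the *Vcan* cluster. *Slc16a3* was too, from 0.85 (*Serpinb10*) to 1.59 (*Lyve1*), and so was *Hilpda* in 6, up to 1.94 (*Lyve1*) and 2.14 (*Plk1*), with 0.41 (-0.12 to 0.92) in the *Serpinb10* cluster. *Vegfa* differed between clusters. It was 1.81 (1.34 to 2.31) in the *Lyve1* cluster, 4.36 (3.01 to 6.05) in the *Plk1* cluster on 45 UMIs, and 0.48 (0.22 to 0.74) in the *Hmga2* cluster. In monocyte clusters it ranged from -0.41 (-0.80 to -0.04, *F10*) to 1.34 (0.76 to 1.89, *Lipg*). *Hif1a* ranged from -0.35 (-0.62 to -0.08) in the *Plk1* cluster to 0.42 among macrophages, and from 0.49 to 1.02 among monocytes.

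**Figure D3:**
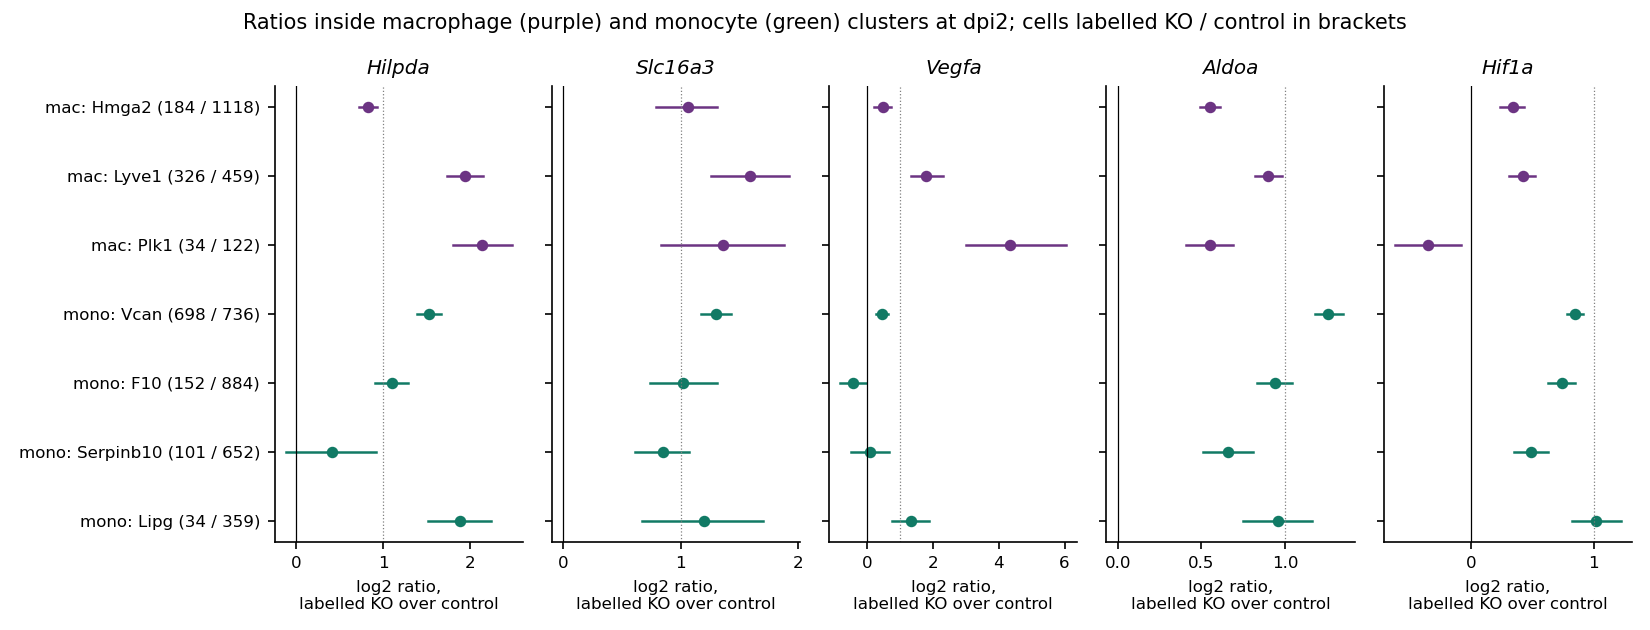
Log2 ratio of the KO-labelled library over the control at dpi2 (x axis) for 5 members within 3 macrophage and 4 monocyte clusters, each named by its leading genes (y axis), with 95% counting intervals as bars. *Aldoa* lies between 0.55 and 1.26, while *Vegfa* lies on both sides of 0.

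At dpi4 the clusters differed between libraries as well. The *Ephx1* cluster held 1192 control macrophages and 426 labelled KO, the *Slc40a1* cluster 258 and 886, and those led by *Mmp12*, *Ppm1n* and *Serpina3f* held 364 and 541, 532 and 344, and 389 and 166. *Aldoa* was above 0 in all 7 clusters with at least 30 cells of each library, from 0.19 to 0.74. *Pgk1* was below 0 in all 7, from -1.20 to -0.59, with an interval that left out 0 in 6. *Hilpda* was at 46.45 and 131.8 CPM in the *Slc40a1* cluster (1.5, 1.29 to 1.72) and at 116.7 and 108 in the *Ephx1* cluster (-0.11, -0.24 to 0.01). *Slc2a1* was 1.37 (0.71 to 2.03) in the *Serpina3f* cluster and 1.01 (0.48 to 1.58) in the *Slc40a1* cluster, and -0.22 (-0.47 to 0.03) in the *Mmp12* cluster.

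Across the 22 leukocyte clusters, summed over the 4 libraries, members had their highest levels in different cells. Neutrophils were highest for *Slc16a3* (466.2 CPM, then 143 in the *Vcan* monocytes), *Slc2a1* (101.1), *Hk2* (94.09), *Pfkfb4* (69.11), *Bnip3* (79.18) and *Egln3* (54.6, against a median cluster of 0.8103). *Hif1a* was highest in the *Vcan* monocytes (537.7 CPM, median 142.8). Among dendritic cells, a cluster led by *Insm1* was highest for *Pfkfb3* (306.2) and *Ddit4* (71.65), and the one led by *Gcsam* and *Xcr1* for *Pfkp* (225) and *Ldha* (591). *Adm* reached 7.349 CPM in the *Insm1* cluster and at most 0.2286 in any other. The libraries gave unequal numbers of cells to each cluster, and these levels are a description.

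**Figure D4:**
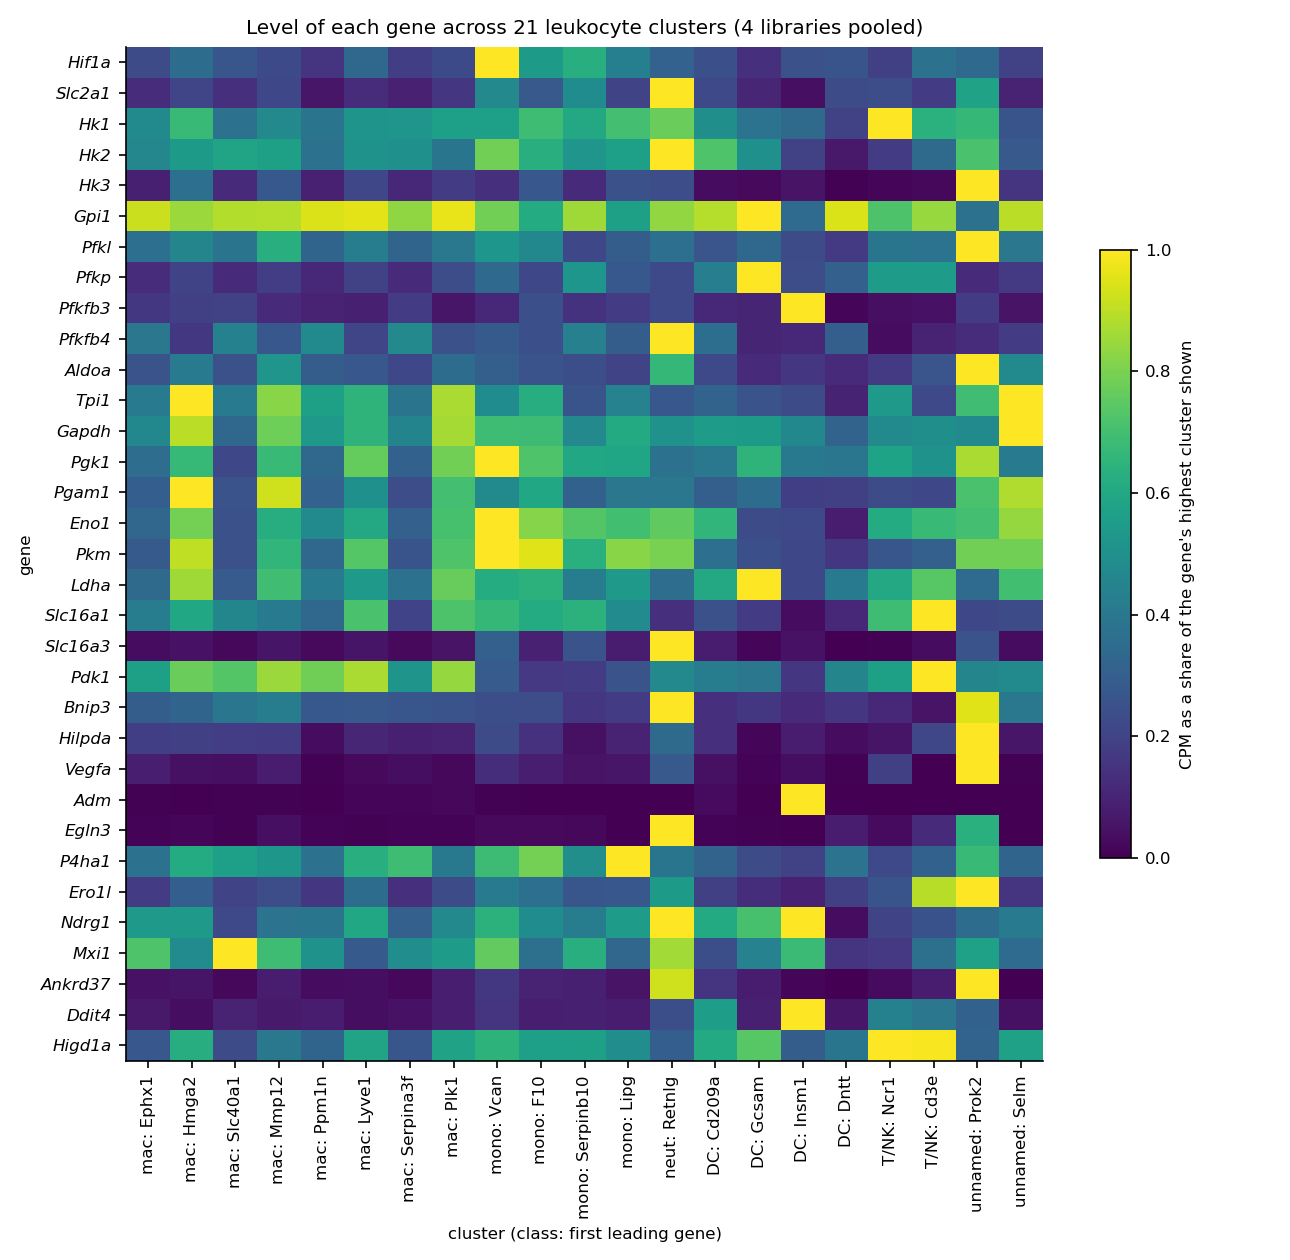
Level of each member (rows, by role) in each of 21 leukocyte clusters (columns, named by leading genes), as a share of its highest level among them, over all 4 libraries. *Slc16a3* and *Egln3* are highest in the neutrophils, *Hilpda* and *Vegfa* in the unnamed cluster led by *Prok2*, and *Pfkfb3* in the dendritic cluster led by *Insm1*.

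Summed over all macrophages, the glycolysis level was lower at dpi4 than at dpi2 in both groups, with a ratio of 0.6779 (0.6732 to 0.6827) in control and 0.6576 (0.6528 to 0.6625) in KO-labelled libraries. These comparisons use the same 4 libraries as those above. In the control, 2 of 32 members were called higher and 2 lower, where 9.72% of 11734 genes were called higher and 6.08% lower. In the KO-labelled libraries, 1 was called higher and 6 lower, against 8.9% and 4.98% of 11441. *Pkm* was at 780.2 and 370.6 CPM in the control (-1.07) and at 863.1 and 424 in the KO-labelled libraries (-1.03). *Hk3* was lower past 2-fold in the control (91.19 to 42.17 CPM, -1.11) and *Higd1a*, a protein of the respiratory chain, in the KO-labelled libraries (109.2 to 53.45 CPM, -1.03, against -0.99 in the control).

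Others of the 6 lower members were *Slc16a3* (-1.16, against 0.05 in the control), *Hilpda* (-1.20 against -0.03), *Pgk1* (-1.67 against 0.05) and *Eno1* (-1.14 against -0.58). *Pgk1* in the KO-labelled library was above the control at dpi2 (0.84) and below it at dpi4 (-0.88). *Vegfa*, called higher at dpi2, was not among the 6, at 50.81 CPM at dpi2 and 28.15 at dpi4 in the KO-labelled libraries. *Pfkfb4*, a second enzyme that sets the activator of phosphofructokinase, was called higher in both groups, from 11.66 to 25.33 CPM in the control (1.12) and from 12.65 to 27.52 in the KO-labelled libraries (1.12). *Egln3* was called higher in the control on 11 and 62 UMIs (1.91, 0.97 to 2.98), and in the KO-labelled libraries it had 32 and 53 (0.11, -0.55 to 0.79). The muscle-fibre markers, all 10 detected, summed to 19.37 and 15.03 CPM in macrophages at dpi2 and to 73.68 and 53.39 at dpi4. The 6 monocyte markers, all detected, summed to 1218 and 926.4 CPM at dpi2 and to 549.1 and 456.6 at dpi4, and the 10 macrophage markers, all detected, to 11420 and 12736 and to 39631 and 32621. The 6 fibroblast markers summed to 2.588 CPM in the control (5 detected) and 1.443 in the KO-labelled library at dpi2, and to 24.43 and 11.99 at dpi4. The part of these markers in the change with time was not tested.

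The macrophages of the days lay in almost separate clusters, and inside those that could be compared the glycolysis level was lower at dpi4 in 1 of 4 comparisons. In the control, the *Hmga2* cluster held 1118 cells at dpi2 and 63 at dpi4 and the *Lyve1* cluster 459 and 7, while the *Ephx1* cluster held 22 and 1192 and the *Ppm1n* cluster 27 and 532. Only the *Hmga2* and *Plk1* clusters had at least 30 cells on both days in both groups, a comparison chosen after seeing the data. Inside the *Hmga2* cluster the glycolysis level of dpi4 over dpi2 had a control ratio of 1.253 (1.226 to 1.28), and the KO-labelled libraries had 1.052 (1.028 to 1.077). In the *Plk1* cluster the control ratio was 1.033 (1.011 to 1.056) and that of the KO-labelled libraries 0.8547 (0.8294 to 0.8808). A change of level within macrophages and a change in which macrophages were present therefore cannot be told apart for the class.

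Inside these clusters *Pkm* had log2 ratios of 0.09 and -0.13 in the control and of -0.09 and -0.35 in the KO-labelled libraries, in the order *Hmga2* and *Plk1*, against -1.07 and -1.03 over the class. *Hilpda* was lower in the KO-labelled libraries in both, at -1.18 (-1.45 to -0.92) and -1.19 (-1.47 to -0.92). *Slc16a3* was at 0.15 (-0.28 to 0.57) and -1.38 (-1.90 to -0.85) there, and *Pgk1* at -0.10 (-0.62 to 0.40) and -0.43 (-1.09 to 0.26). In the control, *Pgk1* was higher at dpi4 in both, at 1.37 (0.98 to 1.74) and 0.88 (0.47 to 1.31).

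**Figure D5:**
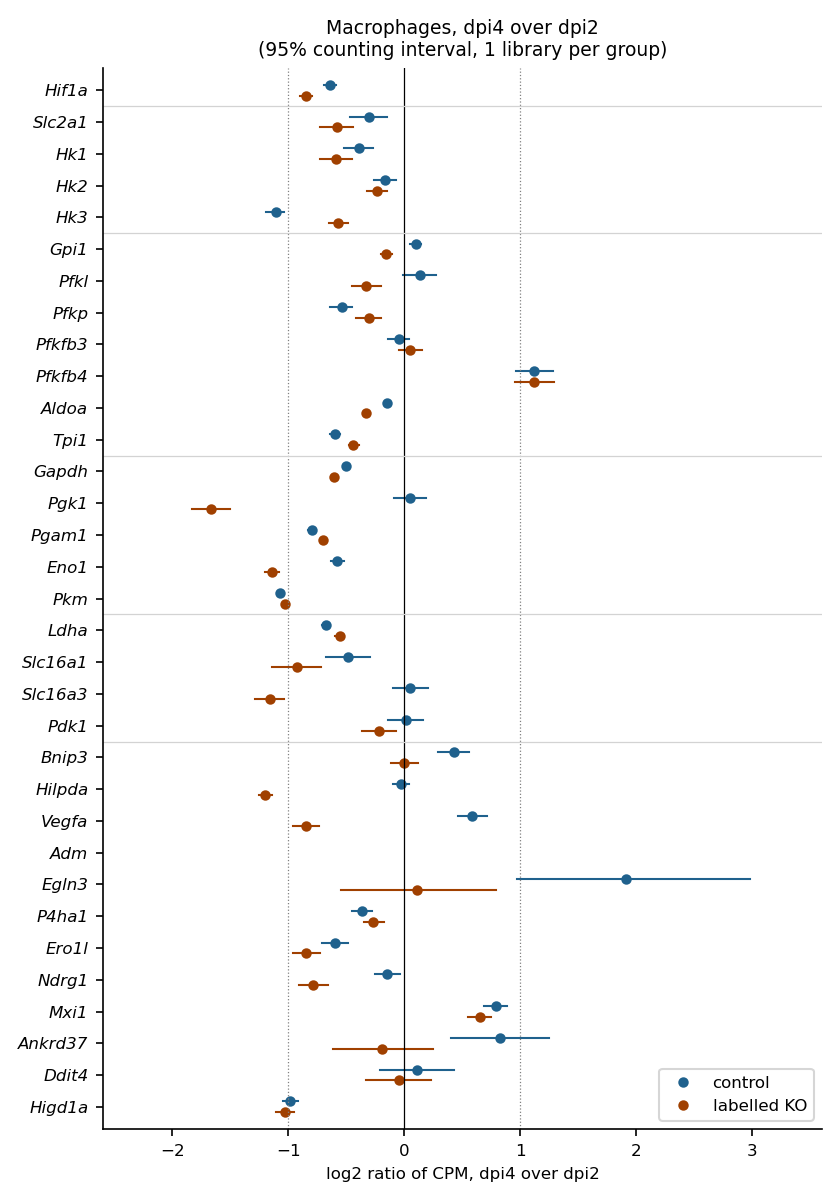
Log2 ratio of dpi4 over dpi2 in macrophages (x axis) for the 33 members (y axis, by role) in the control and the KO-labelled libraries, over the whole class, whose clusters differed between the days, with 95% counting intervals as bars. *Slc16a3*, *Hilpda* and *Pgk1* lie near 0 in the control and at -1.16, -1.20 and -1.67 in the KO-labelled libraries.

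Another 73 genes of the same pathways, 37 of glycolysis and pyruvate and 36 of the HIF pathway, were counted for comparison. The members and these lists were chosen with earlier results of these data known, so the comparison is a description. In macrophages at dpi2, 25 genes of each list were scored and 0 were called. At dpi4, 0 of 27 genes of glycolysis and pyruvate were called. In monocytes at dpi2, *Bhlhe41*, a repressor of transcription, was called lower (12.14 and 4.365 CPM, -1.48), and 0 of 19 genes of glycolysis and pyruvate were called. In neutrophils at dpi2, 0 of 8 and 0 of 13 were called higher and *Insig2*, a regulator of sterol synthesis, lower (22.67 and 11.21 CPM, -1.02). The median log2 ratios were -0.07 and -0.15 for these scored genes, against 0.98 for the scored members. In dendritic cells at dpi2, 1 of 16 HIF pathway genes (*Pgf*) was called higher, as was 1 of 4 glycolysis and pyruvate genes in T or NK cells (*Pdha1*). At dpi4, *Bhlhe40* was called lower in monocytes (137.3 and 52.5 CPM, -1.39, on 77 and 31 UMIs) and *Cited2* in neutrophils (308.6 and 131.7 CPM, -1.23, on 114 and 14 UMIs).

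Counts of some members may hold reads of copies. Another annotated gene matched the last 300 bases of 9 members at 95% identity or more, among them *Gapdh* (131 genes), *Ldha* (6), *Eno1* (5), *Aldoa* (2) and *Pkm* (2), and the counting could have split such reads. *Hilpda*, *Slc16a3*, *Vegfa* and *Pgk1* had no such match. *Hif1a* and *Pkm* overlap another annotated gene on the same strand.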

How the data were processed

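CD45+ cells of 4 libraries were measured by droplet single-cell RNA sequencing. The labels name a version 2 kit for 3′ ends and collagenase type I, while the study's methods name a v3.1 kit and collagenase II. The authors aligned the reads with Cell Ranger 6.1.2 to mm10, and the deposited matrices hold UMI counts per gene and barcode, which were not normalized.

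Barcodes with under 10% mitochondrial UMIs and at least 500 detected genes were kept, and doublets predicted by Scrublet in scanpy 1.11.5 (0.8% per 1000 cells) were removed. Cells of all libraries were clustered together without batch integration (2000 variable genes, 30 principal components, 15 neighbours, Leiden resolution 1 with leidenalg 0.10.2), with the members among 109 genes kept out of the variable genes. Of 27 clusters, 25 were named from fixed markers. A name rests on markers rebuilt here and may differ from the names the study used. A macrophage cluster with 72 control and 438 KO-labelled cells at dpi2, and a gene of the comparison lists, are not reported here.

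UMIs were summed per class and library and scaled to CPM with exact Poisson intervals. Ratios had exact conditional binomial intervals (scipy 1.17.1, 95%). With 1 library per group no test was run, intervals cover counting error only, and genes were called by size (at least 2-fold, interval without 1, at least 50 UMIs). Members called in macrophages, monocytes or neutrophils in a comparison of the KO-labelled library with the control were given with their value in all 4 libraries. The members, lists and comparisons were chosen with earlier results of these data known. Alternatives changed the limits for mitochondrial UMIs, genes, UMIs and fold, the doublets, the clustering, the scaling, the depth, muscle RNA and the pooling of classes.

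Gene positions are from GENCODE on GRCm38 and promoters from RefSeq. The depth was 57010520 to 80228489 UMIs per library.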

Additional observations from a re-analysis of the deposited data

Results flagged for a closer look

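For 12 pairs of a member and a cell class the ratio of the KO-labelled library over the control lay on one side of 1 at dpi2 and on the other at dpi4, with both counting intervals leaving out 1. With 1 library per group and day these differences were not tested, and no explanation was weighed.

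*Pgk1* gave the widest differences on the log2 scale. In macrophages it went from 0.84 at dpi2 to -0.88 at dpi4 (dpi4 minus dpi2, -1.71). In dendritic cells it went from 0.73 to -0.97 (-1.70), and *Vegfa* in the same cells from 1.09 to -0.60 (-1.69). Markers of other cells differed between the dendritic cells of the libraries on both days, as given above, and their part was not tested.

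In macrophages, *Ankrd37* went from 0.60 to -0.41 (-1.01) and *Eno1* from 0.36 to -0.21 (-0.57). *Hk3* went the other way, from -0.24 to 0.30 (0.54), as did *Tpi1*, from -0.05 to 0.11 (0.17).

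In monocytes 5 genes of glycolysis and lactate were higher in the KO-labelled library at dpi2 and lower at dpi4. *Eno1* went from 0.63 to -0.83 (-1.45), *Tpi1* from 0.42 to -0.76 (-1.18) and *Ldha* from 0.28 to -0.59 (-0.87). *Pgam1* went from 0.26 to -0.58 (-0.83) and *Gapdh* from 0.38 to -0.39 (-0.77). The dpi4 values rest on 53 and 69 cells. In these the macrophage markers summed to 13672 CPM in the control and 8239 in the KO-labelled library, and the monocyte markers to 5794 and 8122. Their part in the differences was not tested.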

How the results depend on the processing

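No paired analysis was possible because each group had 1 library and no test was made. Of the counts of called members under the alternatives, 107 stayed within 1.5 times the count reported and 33 did not, and of the log2 ratios of single members 189 moved by less than their counting interval, 36 moved by more and 0 changed sign. At 1.5-fold the members called higher at dpi2 numbered 10 in macrophages (3 at 2-fold), where 5.29% of all scored genes were called higher and 6.03% lower, 15 in monocytes (6 at 2-fold, against 4.95% and 6.78%) and 6 in dendritic cells (3 at 2-fold, against 4.54% and 4.59%), with 0 lower in each. In neutrophils 23 were called (15 at 2-fold), 21 higher and 2 lower, against 4.78% and 21.5%. At dpi4, 2 were called in macrophages, 1 each way (against 3.16% and 4.11%), 4 in monocytes, 1 higher and 3 lower (5.61% and 5.55%), 2 in neutrophils, both higher (4.87% and 8.32%), 3 in dendritic cells, all lower (2.47% and 2.21%), and 2 in T or NK cells, both lower (3.87% and 5.61%). Between the days 12 were called in control macrophages (4 at 2-fold), 4 higher and 8 lower, against 17.3% and 18.2%, and 16 in those labelled KO (7 at 2-fold), 2 higher and 14 lower, against 17% and 15.3%. With doublets kept, 9 members were called higher in neutrophils at dpi2, against 2.14% of all scored genes higher and 4.65% lower. Dendritic cells then had 1 higher (1.29% and 1.49%) and T or NK cells 2 higher (*Hilpda* and *Ero1l*, against 2.66% each way). A mitochondrial limit of 20% gave 1 in dendritic cells on each day, higher at dpi2 (against 1.41% and 1.52%) and lower at dpi4 (0.654% and 0.788%). Thinning to 2000 UMIs per cell gave 1 (higher) in dendritic cells at dpi2, against 0.944% and 2.02%. It gave 1 (*Pgk1*, lower) in macrophages at dpi4, against 1.18% and 0.48%. With monocytes and macrophages pooled, 3 were called at dpi2, all higher (against 1.98% and 2.68%). Between the days 1 was called in the control, lower (10.9% and 6.04%). Between the days, Leiden resolution 0.5 gave 2 of 32 (higher) in the control, against 7.02% of all scored genes higher and 3.64% lower. In the KO-labelled libraries it gave 2 of 32 (lower), against 7.17% and 4.53%. At dpi4 it gave 2 (higher) in neutrophils (2.05% and 4.16%) and 1 (lower) in dendritic cells (0.634% and 0.74%). Macrophages at dpi4 then numbered 1233 and 1139. With each library clustered by itself, 7 were called in monocytes at dpi4, 2 higher and 5 lower (against 6.09% and 6.97%), 2 in neutrophils, both higher (4.46% and 7.13%), and 1 in dendritic cells, lower (1.28% and 0.91%). At least 1 UMI per gene gave 3 of 32 (higher) in T or NK cells at dpi2, against 1.95% and 2.19%. At dpi4 it gave 4 of 32 (lower) in monocytes (1.7% and 1.92%) and 2 of 32 (higher) in neutrophils (1.72% and 1.36%). In T or NK cells at dpi4 it gave 2 of 32, 1 each way (1.41% and 2.63%). At least 200 genes per cell gave 1 (higher) in monocytes at dpi4, against 1.66% and 1.88%. Neutrophils together with the unnamed cluster, chosen after seeing the data, gave 2 (higher) at dpi4, against 4.02% and 6.46%. The cause of these changes was not tested. Few cells were found of neutrophils and monocytes at dpi4 and of T or NK cells, where 10, 20 and 11 to 14 members could be scored.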
